A study of Saccharomyces cerevisiae with 3 samples.

Results

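The genes described here encode the kinetochore and spindle pole body proteins of budding yeast, 55 genes listed by name. Their values were taken from the array probes that a platform annotation names with these genes, and 51 of the 55 had a named probe, out of 5325 genes named on the array. DAD3, DAD4, HSK3 and BIR1 had no named probe and were not analysed here. Genomic DNA of a pooled Saccharomyces cerevisiae variomics library, in which each strain carries variants of 1 gene and short DNA tags that identify it, was hybridised to 3 two-colour tag arrays. The groups were a pool selected with cycloheximide, which blocks translation elongation, a pool selected with rapamycin, an inhibitor of TOR kinase, and a pool selected with tunicamycin, which inhibits the start of N-linked glycan assembly. In each case the Cy5 channel held the selected DNA and the Cy3 channel untreated DNA, and both came from a pool of essential genes that had been sporulated and grown in selective medium, per the labels. Each drug had 1 array, so no difference below has a replicate check and no p-value was computed. Amounts written in the descriptions of the samples (30 ng, 20 ng and 3 "vg", in the order of drugs above) come with no statement of what they refer to. The description of the rapamycin sample holds the word "single" in place of pool, and the labels do not explain it.

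The kinetochore is the protein assembly that ties a centromere to spindle microtubules. In budding yeast the CBF3 complex and the centromeric nucleosome sit on the DNA, the CTF19 and MIND complexes form the inner layers, and the NDC80 and DASH complexes hold the microtubule. The spindle pole body is the yeast equivalent of the centrosome, sits in the nuclear envelope and anchors microtubules through gamma-tubulin complexes on both faces. Most of these proteins are needed for viability. Most proteins of the CTF19 complex can be deleted, with chromosome loss as the known consequence. By textbook knowledge of deletion phenotypes 43 members were taken as essential and 11 as dispensable, and SPC72, whose phenotype depends on the strain, was kept apart.

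Every value is a log2 ratio of selected over untreated DNA minus the array median, averaged over the measured probes of a gene. The direction of the ratio is likely rather than certain, since the file does not state it, and it rests on the dyes in the labels. With the ratio the other way round every sign below would turn, and each depleted member would be an enriched one of the same size. The SD is that between probes of 1 gene on 1 array, n is the number of probes, and a gene with n = 1 has no SD. Depletion was called for genes with 2 or more measured probes if the gene value was 3 or more spread units under 0 and no probe was closer to 0 than 2 units. The unit is the scaled median absolute deviation of all gene values, which puts the line at -2.77 for cycloheximide, -3.17 for rapamycin and -2.74 for tunicamycin. Enrichment was called by the same rule on the other side. Fewer cells of a strain and a weaker amplification or hybridisation of its tag cannot be told apart in these ratios.

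Most essential members lay far below the array median on all 3 arrays, the dispensable members lay near it, and no member was enriched. Cycloheximide left 24 of 33 essential members with 2 or more measured probes depleted (72.7%), rapamycin 11 of 21 (52.4%) and tunicamycin 19 of 31 (61.3%). Over all genes with at least 2 measured probes the same rule called 15.2%, 6.45% and 13.6% depleted on these arrays. The labels describe a pool of essential genes and do not say which of all these genes, or of the dispensable members, had a strain in it. In these shares a strain that was not depleted and a tag without a strain cannot be told apart. Lists of other essential genes are set beside the members further below. Among dispensable members the depleted counts were 0 of 8, 0 of 10 and 0 of 11 in the same order of drugs. With so few genes a count of 0 is near the shares over all genes and is not by itself a result about them. The rule needs every probe past 2 units, so it is also stricter for CBF1, CTF19, CHL4 and MCM22, which have 12 named probes each. The enriched shares over all genes were 0.0485%, 0.0747% and 0.12%, so 0 enriched among 42, 31 and 43 members is near the background and is not a result about them.

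On the rapamycin array 7 of the 39 essential members with a named probe had no measured probe and 11 had a single one, and 10 of these 11 lay at or below -3 units without being eligible for a call. On the cycloheximide array 5 had a single probe, and on the tunicamycin array 8. Of the 15 essential members with at least 2 measured probes on every array, 7 were depleted on all 3, namely CBF2, NSL1, NDC80, NUF2, SPC19, NBP1 and TUB4. The others of the 15 were depleted on 2 arrays (2 genes), on 1 array (3 genes) or on none (3 genes). The share of all genes depleted on all 3 arrays was not counted.

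**Figure D1:**
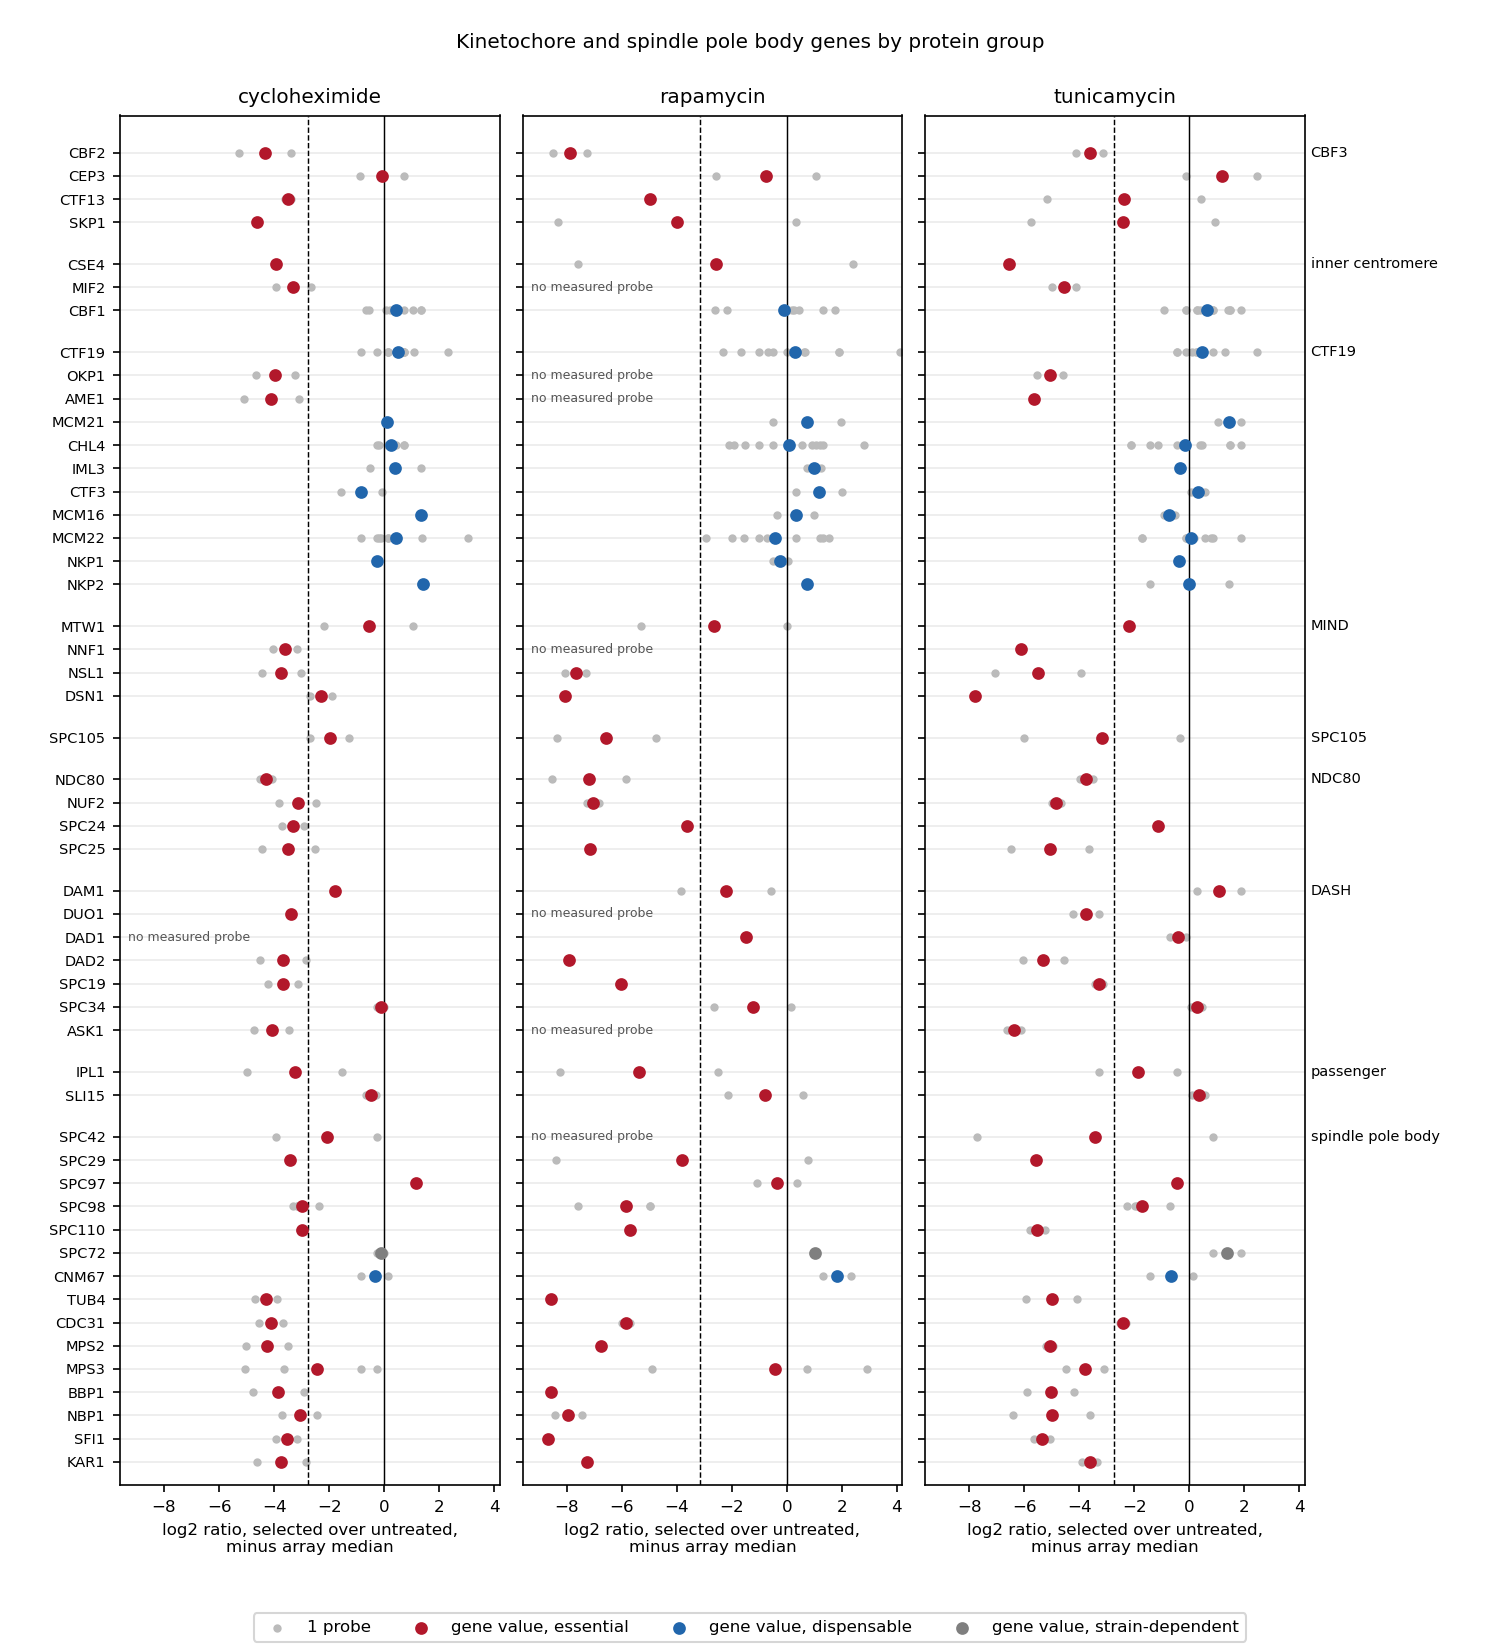
Gene values of the 51 members with a named probe, in rows by protein group, on the cycloheximide, rapamycin and tunicamycin arrays (log2 ratio of selected over untreated DNA minus the array median). Grey points are single probes, red, blue and dark grey points are gene values of essential, dispensable and strain-dependent genes, the solid line is the array median and the dashed line the depletion line. The blue points stay between -0.83 and 1.82, and most red points lie left of the dashed line.

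The CBF3 complex, which binds the centromere DNA and is the base of kinetochore assembly, held 1 member that was low on every array and 1 that stayed near the array median. CBF2 (YGR140W), the scaffold subunit also known as Ndc10, was depleted at -4.33 ± 1.33 under cycloheximide, -7.87 ± 0.88 under rapamycin and -3.62 ± 0.68 under tunicamycin (SD, n = 2 each). CEP3 (YMR168C), the zinc-cluster subunit that contacts the DNA, had -0.08 ± 1.15, -0.75 ± 2.56 and 1.17 ± 1.83 (n = 2 each) on the same arrays and was called on none. Both are subunits of one complex, and they stood on different sides of the depletion line on all 3 arrays. CTF13 (YMR094W), an F-box protein, was depleted under cycloheximide at -3.49 ± 0.14 (n = 2), had -4.96 in 1 probe under rapamycin, and had -2.38 ± 3.97 (n = 2) under tunicamycin. SKP1 (YDR328C), which also serves in SCF ubiquitin ligases, had -4.62 (n = 1), -3.99 ± 6.10 (n = 2) and -2.41 ± 4.73 (n = 2), and the size of its SD comes from 1 low and 1 unshifted probe. The medians of the 4 genes were -3.91, -4.48 and -2.39, and with the probe nearest to 0 as the gene value they were -3.39, -2.32 and 0.15, so that the tunicamycin direction turned.

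At the centromeric nucleosome CSE4 (YKL049C), the histone H3 variant that marks the centromere, had -3.94 (n = 1) under cycloheximide, -2.59 ± 7.06 (n = 2) under rapamycin and -6.56 (n = 1) under tunicamycin. It was called on no array. MIF2 (YKL089W), the yeast CENP-C protein, was depleted under cycloheximide at -3.30 ± 0.91 and under tunicamycin at -4.56 ± 0.62 (n = 2 each), and both its probes were empty under rapamycin. CBF1 (YJR060W), a dispensable helix-loop-helix protein that binds another centromere element, had 0.43 ± 0.80 (n = 8), -0.10 ± 1.44 (n = 9) and 0.64 ± 0.83 (n = 12), near the array median throughout.

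The CTF19 complex divided by deletion phenotype. Its 4-protein COMA core holds 2 essential proteins, OKP1 and AME1, and 2 dispensable ones, CTF19 and MCM21. OKP1 (YGR179C) was depleted at -3.96 ± 1.01 under cycloheximide and -5.08 ± 0.67 under tunicamycin (n = 2 each). AME1 (YBR211C) was depleted at -4.10 ± 1.42 (n = 2) under cycloheximide and had -5.64 in its only measured probe under tunicamycin. All 4 probes of these 2 genes were empty under rapamycin. CTF19 (YPL018W) had 0.50 ± 0.86 (n = 10), 0.28 ± 1.85 (n = 11) and 0.47 ± 0.94 (n = 9) under cycloheximide, rapamycin and tunicamycin, and MCM21 (YDR318W) had 0.09 (n = 1), 0.73 ± 1.74 (n = 2) and 1.45 ± 0.60 (n = 2). The essential pair and the dispensable pair did not overlap on either array that measured both.

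The other 7 dispensable proteins of the complex also stayed near the array median. CHL4 and IML3, which form a pair, had 0.26 ± 0.38 (n = 8), 0.08 ± 1.51 (n = 12) and -0.16 ± 1.43 (n = 11) for CHL4 and 0.39 ± 1.31, 0.99 ± 0.36 and -0.36 ± 0.05 (n = 2 each) for IML3. CTF3, which binds MCM16 and MCM22, had -0.83 ± 1.07, 1.17 ± 1.19 and 0.30 ± 0.35 (n = 2 each). MCM16 had 1.32 (n = 1), 0.32 ± 0.96 (n = 2) and -0.73 ± 0.27 (n = 2). These are scattered on both sides of 0. MCM22 had 0.42 ± 1.24 (n = 8), -0.43 ± 1.51 (n = 10) and 0.06 ± 1.18 (n = 9). The pair NKP1 and NKP2 had -0.26 (n = 1), -0.23 ± 0.39 (n = 2) and -0.37 ± 0.04 (n = 2) for NKP1 and 1.40 ± 0.11 (n = 2), 0.74 (n = 1) and -0.01 ± 2.03 (n = 2) for NKP2. The pool of the labels is one of essential genes, and the labels do not say whether it held a strain of any of these 9, so their values near 0 do not show how their variants fare.

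The medians of the essential members and of the 9 dispensable CTF19 genes were -3.45 and 0.39 under cycloheximide, -5.85 and 0.32 under rapamycin, and -3.77 and -0.01 under tunicamycin. The differences are -3.85, -6.17 and -3.76, so that the essential median was 14.4-fold, 72.0-fold and 13.5-fold lower. The larger fold under rapamycin was lost with quantile normalization, which gives the arrays the same distribution and uses the spots measured on all 3, where the folds were 32.0, 30.6 and 15.7 over 31 essential members. The same spots without that normalization gave 11.3-fold, 113-fold and 9.90-fold. The lowest of the 9 dispensable genes stood at -0.83, -0.43 and -0.73 on the same arrays, where the medians of all named genes were -0.04, -0.21 and -0.09. Of the essential members, 33 of 38, 30 of 32 and 33 of 39 lay below all 9 dispensable genes. Those within their range were CEP3, MTW1, SPC34, SLI15 and SPC97 under cycloheximide, SPC97 and MPS3 under rapamycin, and CEP3, DAM1, DAD1, SPC34, SLI15 and SPC97 under tunicamycin. SPC97 was the essential gene in that range on all 3 arrays. The share of all named genes below the lowest of the 9 was not counted, so the background of these counts is not known. Genes of 1 array are not replicates of a condition, and no test of these differences was made.

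The MIND complex links the centromere-bound proteins to the microtubule-binding layer. NSL1 (YPL233W) was depleted on all 3 arrays, at -3.74 ± 1.01, -7.67 ± 0.53 and -5.50 ± 2.20 (n = 2 each). NNF1 (YJR112W) was depleted under cycloheximide at -3.61 ± 0.60 (n = 2), had no measured probe under rapamycin and had -6.11 (n = 1) under tunicamycin. DSN1 (YIR010W) had -2.31 ± 0.55 (n = 2) under cycloheximide, above the line, and the lowest member values of the complex elsewhere, -8.08 (n = 1) under rapamycin and -7.80 (n = 1) under tunicamycin. MTW1 (YAL034W-A) was the highest of the measured members on every array, of 4 under cycloheximide and tunicamycin and of 3 under rapamycin, at -0.56 ± 2.28 (n = 2), -2.65 ± 3.74 (n = 2) and -2.20 (n = 1), and was not called. The medians were -2.96, -7.67 and -5.80. SPC105 (YGL093W), the KNL1 protein that recruits the spindle checkpoint kinase Bub1, had -1.97 ± 1.004, -6.56 ± 2.54 and -3.18 ± 4.01 (n = 2 each) and was called depleted under rapamycin. Whether the drugs differ there was not tested.

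In the NDC80 complex, whose rod reaches from the MIND complex to the microtubule, every member with at least 2 measured probes was depleted. These were 4 of 4, 2 of 2 and 3 of 3 genes on the cycloheximide, rapamycin and tunicamycin arrays, beside 15.2%, 6.45% and 13.6% of all genes. NDC80 (YIL144W), which with Nuf2 forms the microtubule-binding end, had probes at -4.51 and -4.06 under cycloheximide, -5.86 and -8.52 under rapamycin, and -3.52 and -3.98 under tunicamycin. Its gene values were -4.29 ± 0.32, -7.19 ± 1.88 and -3.75 ± 0.33 (n = 2 each). NUF2 (YOL069W) had -3.15 ± 0.93, -7.03 ± 0.30 and -4.84 ± 0.23 (n = 2 each). Both genes were thus low in every one of their probes. SPC25 (YER018C), at the opposite end of the rod, had -3.49 ± 1.35 (n = 2), -7.14 (n = 1) and -5.08 ± 2.01 (n = 2). Its partner SPC24 (YMR117C) had -3.32 ± 0.56 (n = 2), -3.61 (n = 1) and -1.13 (n = 1), and was the highest of the 4 under rapamycin and tunicamycin. The medians of the complex were -3.41, -7.08 and -4.30, and with quantile normalization -5.38, -4.87 and -4.41, so that the order of cycloheximide and rapamycin turned.

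The DASH complex forms rings around microtubules and couples them to the NDC80 complex. Of its 10 genes 7 had a named probe. Under cycloheximide, rapamycin and tunicamycin 4 of 5, 1 of 3 and 4 of 7 of those with 2 or more measured probes passed the depletion rule. Over all genes 15.2%, 6.45% and 13.6% passed it. SPC19 (YDR201W) was depleted on all arrays at -3.68 ± 0.79, -6.04 ± 0.08 and -3.28 ± 0.22 (n = 2 each). ASK1 (YKL052C) had -4.08 ± 0.90 and -6.36 ± 0.36 and DUO1 (YGL061C) -3.40 ± 0.0028 and -3.77 ± 0.67 under cycloheximide and tunicamycin (n = 2 each), and neither had a measured probe under rapamycin. DAD2 (YKR083C) had -3.68 ± 1.20 (n = 2), -7.93 (n = 1) and -5.31 ± 1.05 (n = 2). The remaining 3 subunits were never called. SPC34 (YKR037C) had -0.13 ± 0.19, -1.25 ± 1.99 and 0.26 ± 0.28 (n = 2 each). DAM1 (YGR113W), the subunit whose phosphorylation by Ipl1 weakens the microtubule bond, had -1.79 (n = 1), -2.22 ± 2.31 (n = 2) and 1.08 ± 1.12 (n = 2). DAD1 (YDR016C) had no measured probe under cycloheximide, -1.48 (n = 1) under rapamycin and -0.42 ± 0.41 (n = 2) under tunicamycin.

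Of the chromosomal passenger complex, which corrects wrong attachments, the kinase and its activator were measured. IPL1 (YPL209C), the Aurora B kinase, had probes at -1.52 and -4.97 under cycloheximide, -2.49 and -8.23 under rapamycin, and -0.45 and -3.28 under tunicamycin. The gene values were -3.25 ± 2.44, -5.36 ± 4.06 and -1.87 ± 2.00 (n = 2 each), and only that under rapamycin was called. The higher-numbered probe was the lower one on all 3 arrays. SLI15 (YBR156C), the INCENP protein, had -0.49 ± 0.25, -0.78 ± 1.92 and 0.34 ± 0.34 (n = 2 each) and was not called on any array.

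Essential spindle pole body members were depleted in 9 of 11, 4 of 7 and 8 of 11 cases on the cycloheximide, rapamycin and tunicamycin arrays, beside 15 of 22, 7 of 14 and 11 of 20 essential kinetochore members. Over all genes the depleted shares were 15.2%, 6.45% and 13.6%. The medians of the essential spindle pole body and kinetochore members were -3.42 and -3.49 under cycloheximide, -6.31 and -5.16 under rapamycin, and -5.00 and -3.69 under tunicamycin, with ranges that overlapped on every array. Of the gamma-tubulin complex, which nucleates microtubules, TUB4 (YLR212C), gamma-tubulin itself, was depleted at -4.29 ± 0.55, -8.55 ± 0.04 and -5.00 ± 1.31 (n = 2 each), and its rapamycin value stands at the low end of that array's scale, so no fold is given for it. SPC98 (YNL126W), named by 4 probes, had -3.001 ± 0.42 (n = 4), -5.85 ± 1.52 (n = 3) and -1.72 ± 0.69 (n = 4), depleted on the first 2 of these arrays. SPC97 (YHR172W), the third protein of this complex, had 1.15 (n = 1), -0.35 ± 1.03 (n = 2) and -0.45 (n = 1). SPC97 thus stood more than 4 log2 units above TUB4 on each array.

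The receptors that hold the gamma-tubulin complex differed in level as well. SPC110 (YDR356W), on the nuclear face, had -2.98 ± 0.11 (n = 2), -5.70 (n = 1) and -5.52 ± 0.38 (n = 2). SPC72 (YAL047C), on the cytoplasmic face, had -0.13 ± 0.19 (n = 2), 1.02 (n = 1) and 1.37 ± 0.71 (n = 2). CNM67 (YNL225C), a dispensable spacer of the outer layers, had -0.35 ± 0.71, 1.82 ± 0.71 and -0.66 ± 1.12 (n = 2 each), and the rapamycin value was the highest of any member on that array. The labels do not say whether the pool of essential genes held a strain of SPC72 or CNM67. Their values therefore do not show how their variants fare. In the central plaque SPC42 (YKL042W), which forms its crystalline layer, had -2.09 ± 2.59 and -3.42 ± 6.07 (n = 2 each) under cycloheximide and tunicamycin and no measured probe under rapamycin. SPC29 (YPL124W), its neighbour in that layer, had -3.42 (n = 1), -3.82 ± 6.47 (n = 2) and -5.58 (n = 1).

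The half-bridge, where a new spindle pole body begins, and the proteins that insert it into the nuclear envelope were mostly low. CDC31 (YOR257W), the yeast centrin, had -4.12 ± 0.63, -5.85 ± 0.21 and -2.41 ± 0.17 (n = 2 each), and it was depleted under cycloheximide and rapamycin but not under tunicamycin, where the line is -2.74. SFI1 (YLL003W), the filament to which Cdc31 binds, had -3.55 ± 0.54 (n = 2), -8.66 (n = 1) and -5.36 ± 0.43 (n = 2), and the rapamycin value stands at the low end of that array's scale. KAR1 (YNL188W), another half-bridge protein, had -3.74 ± 1.26 (n = 2), -7.24 (n = 1) and -3.62 ± 0.39 (n = 2). The insertion factors BBP1, MPS2 and NBP1 were depleted under cycloheximide and tunicamycin. BBP1 (YPL255W) had -3.84 ± 1.32 (n = 2), -8.56 (n = 1) and -5.04 ± 1.21 (n = 2), MPS2 (YGL075C) had -4.25 ± 1.07 (n = 2), -6.77 (n = 1) and -5.08 ± 0.19 (n = 2), and NBP1 (YLR457C) had -3.07 ± 0.89, -7.93 ± 0.67 and -5.00 ± 1.98 (n = 2 each). MPS3 (YJL019W), the SUN-domain protein of the half-bridge, had -2.45 ± 2.28 (n = 4), -0.41 ± 4.02 (n = 3) and -3.79 ± 0.99 (n = 2), and was depleted under tunicamycin alone.

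The 4 probes of MPS3 form 2 pairs that did not behave alike. The pair numbered 2873 and 13844 had -3.66 and -5.05 under cycloheximide and -4.49 and -3.09 under tunicamycin, with -4.89 in its only measured probe under rapamycin. The pair numbered 2872 and 13843 had -0.85 and -0.26 under cycloheximide and 0.74 and 2.91 under rapamycin, and neither probe was measured under tunicamycin. The gene value of MPS3 under rapamycin therefore averages a low probe with 2 that were not low. Each of the 4 probes of SPC98 was low under cycloheximide, between -3.31 and -2.38.

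In other genes as well the 2 probes differed. A pair was counted as split when 1 probe lay at or below -3 units and the other above -2 units. Among essential members 2 of 35 pairs were split under cycloheximide (IPL1 and SPC42), 5 of 21 under rapamycin (CSE4, DAM1, MTW1, SKP1 and SPC29) and 5 of 32 under tunicamycin (CTF13, IPL1, SKP1, SPC105 and SPC42). Among dispensable members it was 0 of 14, 0 of 24 and 0 of 24 pairs. None of their probes lay at or below -3 units, so none of their pairs could count as split, and this does not show better agreement. The share of split pairs over all genes was not counted. A gene with a split pair cannot pass the depletion rule, whatever its mean.

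In 6 essential genes the same probe stayed above -2 units on every array that measured it while its partner lay at or below -3 units on at least 1. CSE4 is an example. Its probe 3280 had -3.94, -7.58 and -6.56 on the 3 arrays, and its probe 14251 was measured under rapamycin alone, at 2.40. SPC29 showed the same form, with -3.42, -8.39 and -5.58 in probe 5665 and 0.76 under rapamycin in probe 16636. SKP1 had it the other way round, with 0.32 and 0.94 under rapamycin and tunicamycin in its lower-numbered probe and -4.62, -8.31 and -5.76 in the higher-numbered one. DAM1, MTW1 and SPC42 were the other 3, and in 5 of the 6 genes the unshifted probe was the higher-numbered one. CTF13 and SPC105 were not of this kind, since both probes were low on another array.

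**Figure D2:**
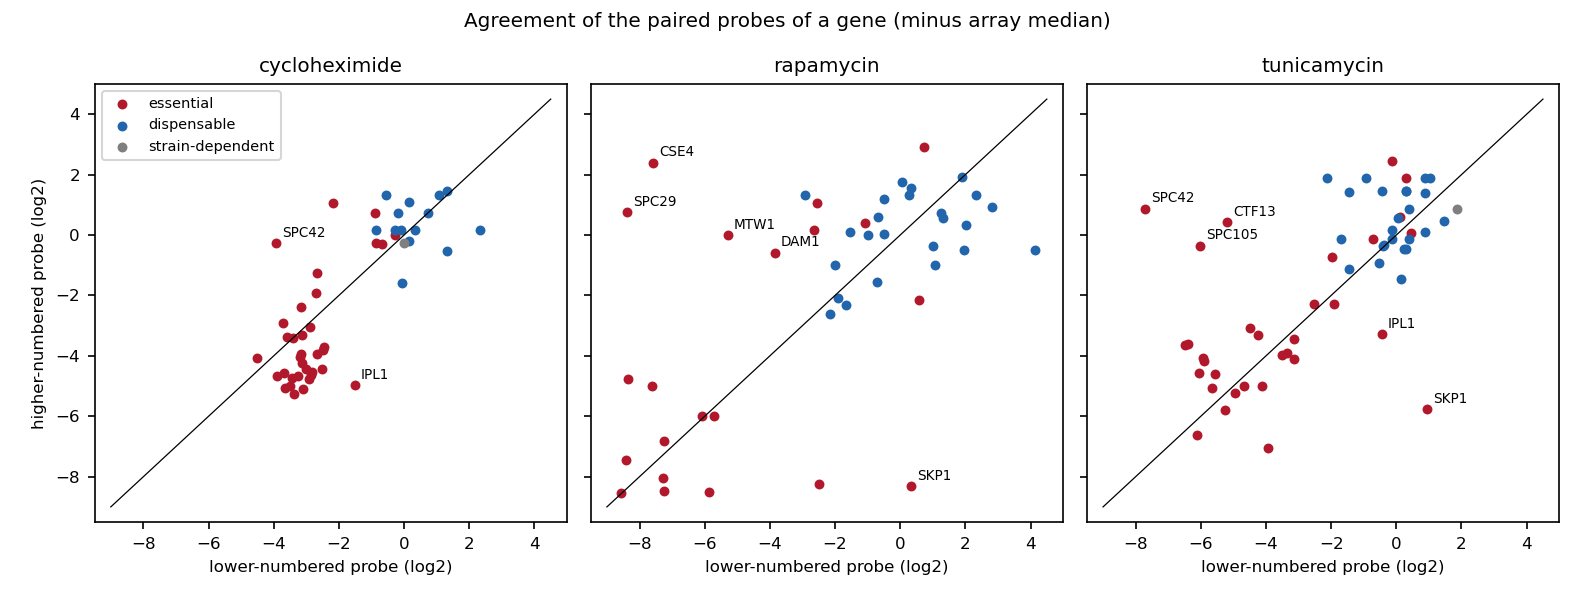
Paired probes of each member on the cycloheximide, rapamycin and tunicamycin arrays, with the lower-numbered probe on the horizontal and the higher-numbered probe on the vertical axis (log2 ratio minus the array median). Points on the diagonal have equal values, and named points are the split pairs of essential genes, of which there are 2, 5 and 5. The blue points of dispensable genes surround 0.

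The offset between the paired probes of essential members differed in sign between arrays. Under cycloheximide the lower-numbered probe had the higher value in 23 of 35 pairs, with a median difference of 0.84, under rapamycin in 7 of 21 pairs, with a median of -0.95, and under tunicamycin in 14 of 32 pairs, with a median of -0.53. Among dispensable members the medians were -0.20, 0.31 and -0.41. With the lower-numbered probes alone, 8 of 47 members were depleted under cycloheximide, and with the higher-numbered alone 19 of 45, against 3.69% and 14% of all genes. Each SD given above holds this offset as well as scatter.

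Empty spots were unevenly spread. Under rapamycin 27 of the 82 spots of essential members (32.9%) were empty, against 7 of 62 spots of dispensable members (11.3%) and 12.7% of the spots of all named genes. Under cycloheximide the shares ran the other way, with 4.88% for essential and 19.4% for dispensable members, and under tunicamycin they were 7.32% for essential and 9.68% for dispensable members. The genes with no measured probe under rapamycin were MIF2, OKP1, AME1, NNF1, DUO1, ASK1 and SPC42, and the first 6 of them were below -2 units in every probe measured on the other arrays. A gene without a measured probe enters no median, so the rapamycin medians rest on fewer genes than the others, and the part of the empty spots in those medians was not tested.

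A single repeated value, equal to the log2 of 100000 and left out as a code, stood on 7 spots of essential members, 3 under cycloheximide (3.66%) and 4 under tunicamycin (4.88%). Over the spots of all named genes its share was 3.16% under cycloheximide, near that of the members, and 2.14% under tunicamycin. These were probes of CSE4, DAD1, DAM1, MPS3, MTW1, SPC29 and SPC97. All 7 were higher-numbered probes, and all 7 stayed above -2 units wherever they were measured. On 4 of them, those of CSE4, DAM1, MTW1 and SPC29, the partner probe was low on at least 1 array. Among the spots of dispensable members the code stood on 5 under cycloheximide and 1 under tunicamycin. There it lay on lower-numbered probes of CTF19 and CHL4, on higher-numbered probes of MCM22 and on both kinds for CBF1. Neither probe number nor a value above -2 units was counted over all coded spots, so neither is read as particular to the essential members.

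**Figure D3:**
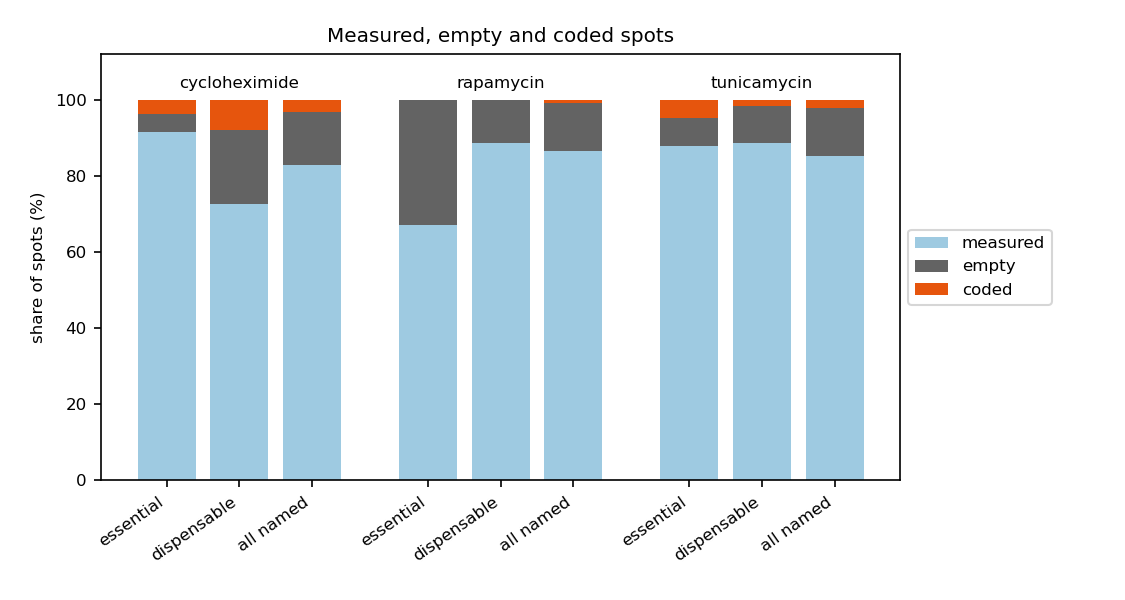
Shares of measured, empty and coded spots (in %) among essential members, dispensable members and all named genes on the 3 arrays. The empty share of essential members is highest under rapamycin, at 32.9%, against 11.3% for dispensable members.

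A further property of the spots is whether the deposited ratio equals, to 3 decimals, a ratio of whole numbers up to 10. Such ratios cannot lie beyond 3.32 log2 units on either side of 0, so for this form only spots within that range were compared. Within it 9 of 20 spots of essential members (45.0%) had this form on the cycloheximide array, 6 of 13 (46.2%) on that of rapamycin and 15 of 23 (65.2%) on that of tunicamycin. For dispensable members the counts were 36 of 45 (80.0%), 23 of 50 (46.0%) and 43 of 55 (78.2%), and over all named genes the shares were 74.0%, 47.8% and 69.9%. How bright these spots were is not known, since no channel signals were used.

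The 5 essential genes, CEP3, DAD1, SPC34, SLI15 and SPC97, were those with no gene value below -2 units on any array that measured them. They belong to 4 different groups, and each has a partner protein that was depleted on at least 1 array, namely CBF2 for CEP3, SPC19 for SPC34 and DAD1, IPL1 for SLI15, and TUB4 and SPC98 for SPC97. Single probes of CEP3, SLI15 and SPC34 stood at -2.57, -2.14 and -2.65 under rapamycin, each with a partner probe above 0. The labels do not say whether the pool held active tags for these strains, and a strain that kept its share under all 3 drugs and a tag without a strain cannot be told apart.

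The low end of the scale limits comparison of the lowest members. Under rapamycin no measured spot of the array had a deposited log2 ratio below -10, and 14 of the 55 measured spots of essential members lay below -9. TUB4 at -8.55, BBP1 at -8.56 and SFI1 at -8.66 all stand next to the lowest centred value on that array, -8.67, and their order is not read. Under cycloheximide and tunicamycin 0 spots of essential members lay below -9.

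Between drugs the values of the same members were set side by side. Each array had its own untreated channel, and with 1 array per drug a difference between drugs and one between arrays cannot be told apart. The median difference of essential members was 2.52 for cycloheximide minus rapamycin, positive in 28 of 31 genes, 1.20 for cycloheximide minus tunicamycin, positive in 24 of 38, and -2.33 for rapamycin minus tunicamycin, positive in 4 of 32. Over all named genes the medians were 0.38, 0.16 and -0.31, positive in 61.6%, 55.9% and 39.4% of genes, so the 24 of 38 (63.2%) for cycloheximide minus tunicamycin is near the background. The segregation genes had medians of 2.47, 0.70 and -1.33, the DNA replication genes 2.34, 0.997 and -1.60 in the same order, and the 9 dispensable CTF19 genes 0.18, 0.35 and 0.24. On each array's own scale most essential members thus were lower under rapamycin than under either other drug. With quantile normalization this was not kept against cycloheximide, since the median differences became -0.13, -0.74 and -0.76, positive in 15, 13 and 7 of 31 genes. Over all named genes that setting gave medians of 0.03, 0.04 and 0.03, positive in 50.8%, 51.3% and 51.2%. The 15 and 13 of 31 (48.4% and 41.9%) are thus near the background. Over the same spots without that normalization the medians of essential members were 3.12, 0.037 and -2.94, and those of all named genes 0.38, 0.09 and -0.30.

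The largest differences of single members, on each array's own scale, were of either sign. DSN1 had the largest positive ones, 5.77 for cycloheximide minus rapamycin and 5.50 for cycloheximide minus tunicamycin, followed for rapamycin by SFI1 (5.11) and NBP1 (4.86) and for tunicamycin by CSE4 (2.61) and SPC110 (2.54). In the opposite direction CNM67 (-2.17), MPS3 (-2.04) and CTF3 (-1.99) were higher under rapamycin than under cycloheximide, and DAM1 (-2.88), SKP1 (-2.21) and SPC24 (-2.20) higher under tunicamycin than under cycloheximide. Between rapamycin and tunicamycin CBF2 (-4.25), SPC98 (-4.14) and KAR1 (-3.62) were lower under rapamycin. CSE4 (3.97), MPS3 (3.38) and CNM67 (2.48) had higher gene values there. The rapamycin values of CSE4 and MPS3, the cycloheximide value of MPS3 and the tunicamycin value of SKP1 average split or unlike probes. On the only probe measured on both arrays, CSE4 and MPS3 were lower under rapamycin than under tunicamycin. The values were -7.58 and -6.56 in probe 3280 of CSE4, and -4.89 and -4.49 in probe 2873 of MPS3. In probe 2873 MPS3 was also lower under rapamycin than under cycloheximide, where it had -3.66. Its probes 2872 and 13843 were higher under rapamycin, at 0.74 and 2.91 against -0.85 and -0.26 under cycloheximide. Probe 13844, at -5.05 under cycloheximide, was empty under rapamycin. SKP1 was lower under tunicamycin than under cycloheximide in its only shared probe, 12219, at -5.76 and -4.62. The difference of CSE4 between cycloheximide and tunicamycin was taken over the same probe, 3280, on both arrays, and the rapamycin value of SFI1 stands at the low end of the scale, so the size of its difference is not read. The values of DSN1, SFI1, KAR1, DAM1, SPC24, CSE4 and SKP1 rest on 1 probe on at least 1 of the arrays compared.

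The essential members were set beside gene lists of related function. Of the SMC complex, anaphase-promoting complex and mitotic exit genes, nearly all of them essential, 16 of 32 (50%), 14 of 23 (60.9%) and 15 of 30 (50%) were depleted on the cycloheximide, rapamycin and tunicamycin arrays, with medians of -3.17, -5.34 and -3.57. Of the essential DNA replication genes 25 of 37 (67.6%), 11 of 20 (55%) and 19 of 35 (54.3%) were depleted, with medians of -3.42, -5.60 and -3.89. The medians of the essential members, -3.45, -5.85 and -3.77, differed from those of either list by less than 1 spread unit on each array. Over all named genes the medians were -0.04, -0.21 and -0.09.

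**Figure D4:**
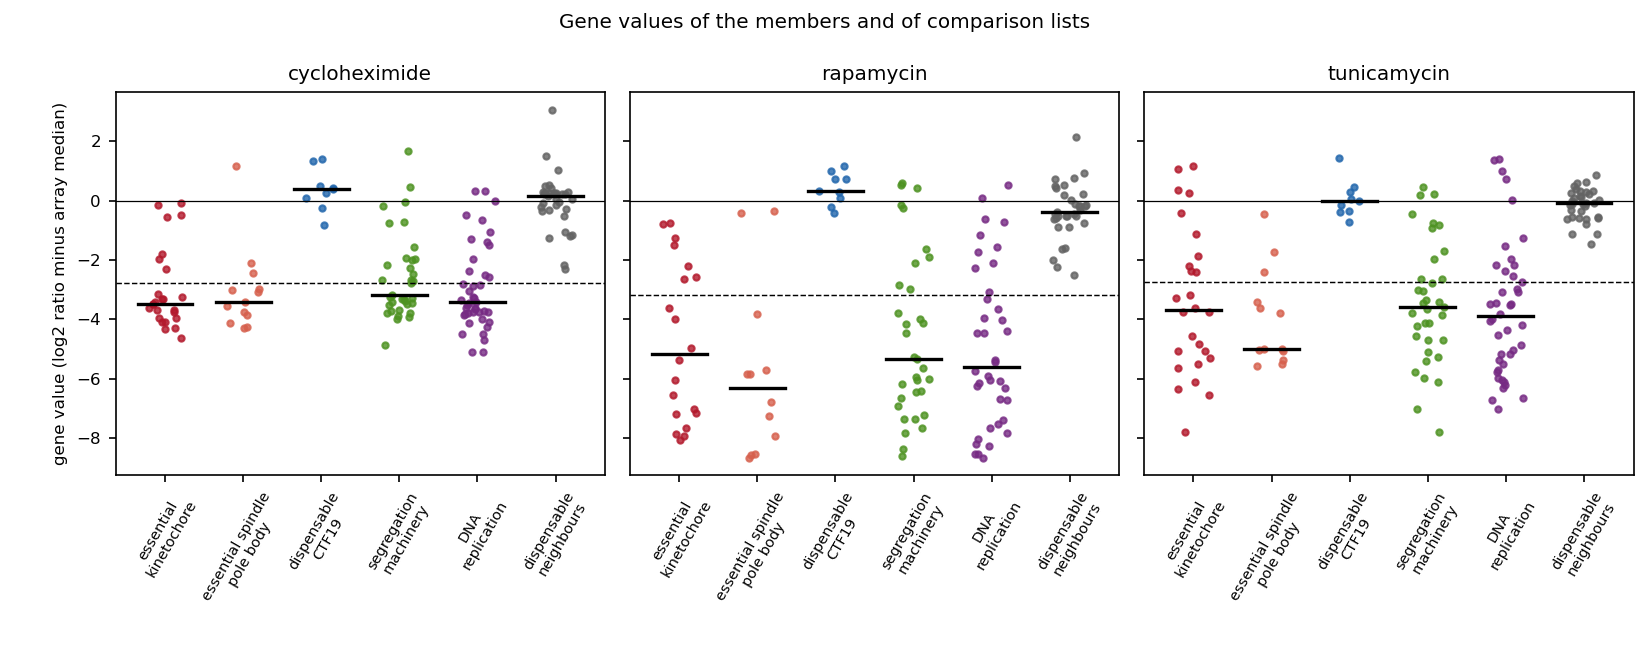
Gene values (log2 ratio minus the array median) of essential kinetochore, essential spindle pole body and dispensable CTF19 members and of 3 comparison lists on the 3 arrays. Each point is a gene, thick bars are medians and dashed lines the depletion lines. The essential sets spread over the same range as the segregation and replication lists, and both dispensable sets centre near 0.

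Other genes of the spindle and kinetochore were described in the same way. Of 9 further essential genes, 2 of 8, 3 of 7 and 3 of 7 were depleted in that order of drugs, counting genes with 2 or more measured probes. Over all genes the shares were 15.2%, 6.45% and 13.6%, so 2 of 8 under cycloheximide is near the background. The medians of these further essential genes were -2.16, -4.08 and -1.82. Unlike those of the segregation and replication lists, they lay above the medians of the essential members by more than the spread unit on each array. MPS1 (YDL028C), the checkpoint kinase that also acts in spindle pole body duplication, was low on every array at -3.35 ± 0.88, -8.22 ± 0.32 and -5.39 ± 0.41 (n = 2 each). STU2 (YLR045C), a microtubule polymerase at kinetochores, had -4.12 ± 1.31 (n = 2), -8.47 (n = 1) and -6.003 ± 0.87 (n = 2). The tubulins were unlike each other. TUB2 (YFL037W), the beta-tubulin, had -2.46 ± 0.28, -5.09 ± 1.56 and -2.71 ± 1.41 (n = 2 each), and TUB1 (YML085C), the main alpha-tubulin, had 0.04 ± 0.43 (n = 2), 1.24 (n = 1) and 0.89 ± 0.81 (n = 2). KRE28 (YDR532C), the partner of Spc105, had 0.74 (n = 1), -1.09 ± 0.13 (n = 2) and -0.93 (n = 1). Of the dispensable checkpoint, motor and meiotic genes of the list, 0 of 30, 0 of 31 and 0 of 31 were depleted. Over all genes it was 15.2%, 6.45% and 13.6%. Their medians were 0.16, -0.38 and -0.09. Many of these genes have more than 2 measured probes, so the demand on every probe is stricter for them. That demand did not decide the counts, since no gene value reached the lines of -2.77, -3.17 and -2.74. The lowest were -2.30 ± 3.28 (KIP2, n = 9), -2.50 ± 2.92 (VIK1, n = 2) and -1.45 (SGO1, n = 1).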

How the data were processed

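The authors' deposited log2 ratios were used, 1 per spot for 22575 spots and 3 arrays. Per the labels' protocols, tag regions were amplified from genomic DNA with dye-linked universal primers. No label names the scanner, the background correction or a normalization, and the depth of signal is unknown. Base 2 was read from the values. Probes were named through the platform annotation, and 5321 of 5325 genes matched RefSeq (assembly R64) by identifier. Empty spots and a repeated value equal to the log2 of 100000, read as a code, were left out, the array median was subtracted (-0.74, -1.32 and -0.87 for cycloheximide, rapamycin and tunicamycin) and the probes of a gene were averaged. The spread unit was 0.92, 1.06 and 0.91. The 3 arrays correlated at 0.51 to 0.62 over measured spots. The calls are rules of size, with no p-value, and the calling steps were tested on simulated data. The members and lists were chosen with earlier results of these data known. The named genes were the lowest and highest of each group, every dispensable member, those depleted on all arrays and those that differed most between drugs; the other members were added in full. Python 3.11.15, numpy 2.4.6 and pandas 2.3.3 were used.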

Additional observations from a re-analysis of the deposited data

How the results depend on the processing

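With 1 array per drug no replicate could be left out. No paired analysis was possible because each drug has a single array and the labels give no replicate numbers. Of the alternatives, 21 of 30 recounts of depleted members stayed within 1.5 times the count given, and the essential median stayed below the dispensable CTF19 median in all 27 recalculations. The count for rapamycin was 21 of 44 when 1 measured probe sufficed, with all 11 genes shared, against 11.7% of all genes. At the stricter threshold of 4 units per gene and 3 per probe the count for cycloheximide was 11 of 42, against 8.27% of all genes. With quantile normalization, where only 21 members kept at least 2 probes measured on all arrays, the counts were 9 for cycloheximide and 8 for tunicamycin, against 7.51% and 6.37% of all genes. The same spots without that normalization, added after seeing the data, gave 9 and 7 of 21, against 6.45% and 5.85%, so the fall in these counts is there with fewer spots alone. Lower- and higher-numbered probes were compared after seeing the data, and gave 8 of 47 for cycloheximide and 17 of 36 for rapamycin from lower-numbered probes, against 3.69% and 12.1% of all genes, and 18 of 39 for rapamycin from higher-numbered ones, against 9.06%. For these counts 1 measured probe sufficed, and the spread unit was that of the probes used. With the smaller spread unit of the dispensable neighbours 1 member was enriched under cycloheximide (NKP2, 1.40) and 1 under rapamycin (CNM67, 1.82). Quantile normalization gave differences between the essential and the dispensable CTF19 median of -5.00 for cycloheximide and -4.94 for rapamycin, and median differences of essential members of -0.13 for cycloheximide minus rapamycin, -0.74 for cycloheximide minus tunicamycin and -0.76 for rapamycin minus tunicamycin. By construction it gives the arrays 1 distribution. Its spots without normalization gave 0.037 for cycloheximide minus tunicamycin. Without centring the rapamycin medians were -5.80 for CBF3, -2.66 for the inner centromere, -1.003 for CTF19, -8.99 for MIND, -7.88 for SPC105, -8.41 for NDC80, -3.54 for DASH, -4.39 for the passenger complex and -7.17 for the spindle pole body, by construction lower by the array median of 1.32. With the probe nearest to 0 as the gene value the passenger median was -0.91 under cycloheximide and -0.95 under rapamycin, that of CBF3 -2.32 under rapamycin and 0.15 under tunicamycin, that of SPC105 -4.76 and -0.35, and that of the inner centromere 1.23 under rapamycin. Quantile normalization gave -5.64, -5.38 and -4.68 for CBF3, NDC80 and the spindle pole body under cycloheximide. Under rapamycin it gave -2.64, -5.48, -4.87, -4.87, -3.37 and -4.32 for the inner centromere, MIND, SPC105, NDC80, DASH and the spindle pole body, and under tunicamycin -2.98, -1.90 and -4.94 for the inner centromere, DASH and the spindle pole body. With the coded value kept as a ratio the inner centromere median under tunicamycin turned to 0.57, since the coded probe of CSE4 then entered its mean. Where no construction is named, the cause was not tested. The channel signals were not analysed here, so what brightness limits is not known.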
